A study of Mus musculus with 6 samples.

Results

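Sox9, Sox5 and Sox6 encode the SOX transcription factors that direct cartilage formation, and they are described here with 4 relatives of the same family, Sox8, Sox4, Sox11 and Sox12. The genes were taken by name, and all 7 were found among the 25491 genes of the table and were abundant enough to be tested. The RNA came from sorted mesenchymal progenitors of mouse bone marrow, stromal cells that can form cartilage, bone and fat. 3 libraries were from Lama4-/- mice, which lack the alpha 4 chain of laminin, and 3 from wild type mice. All mice were C57BL/6J aged 14 weeks, and all had received 7 Gy of sublethal radiation 6 weeks before the sort, so both genotypes are regenerating marrow and no unirradiated marrow was measured. The gate took cells without CD45, TER119, CD31, CD44 and SCA1 and with CD51. How the Lama4 allele was made, whether each library came from a separate mouse, and which of the Illumina instruments named in the labels ran each library are points on which the labels are silent. The p-values therefore reflect how far these samples spread, and that spread may be technical.

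SOX proteins bind DNA through an HMG box that recognises short motifs close to ACAATG or ACAAAG and bends the helix. SOX9, of the E group with SOX8 and SOX10, carries an activation domain and is required for mesenchymal cells to become chondrocytes. SOX5 and SOX6, of the D group with SOX13, have no activation domain of their own. They pair through a coiled coil and strengthen the action of SOX9 on cartilage genes such as Col2a1 and Acan. SOX4, SOX11 and SOX12 form the C group, which acts in the survival and growth of progenitor cells in several tissues, the skeleton among them.

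The genes lie apart in the genome. In GRCm38, Sox9 spans 112782224 to 112787760 of chromosome 11 on the plus strand, with a single annotated transcript of 4135 bases. Sox5 is a long gene, at 143828425 to 144781977 of chromosome 6 on the minus strand, with 14 annotated transcripts and a longest one of 7243 bases. Sox6 covers 115470872 to 116038796 of chromosome 7 on the minus strand, with 16 transcripts and a longest one of 8668 bases. The other 4 are compact genes of the minus strand. Sox8 is at 25565892 to 25570686 of chromosome 17 and Sox4 at 28948919 to 28953713 of chromosome 13. Sox11 is at 27334264 to 27342574 of chromosome 12 and Sox12 at 152393611 to 152398063 of chromosome 2. Their longest transcripts have 3000, 4795, 8311 and 4453 bases in that order. The counts are per gene and cover exons, so they do not tell the transcripts of Sox5 or Sox6 apart.

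Windows of 250 bases before RefSeq gene starts (GRCm38.p6) were searched on both strands for ACAATG and ACAAAG, the kind of motif that SOX proteins read. Entries for 6 of the 7 genes, all but Sox9, gave 11 starts. A match lay in the window of the 1 Sox5 start and in 5 of the 6 Sox6 starts, and in none of the windows of Sox8, Sox4, Sox11 and Sox12. Counted by gene, 2 of the 6 had a match. Of 10 cartilage genes named further below, 6 had a window, and 0 of those windows held a match. Of all 32851 mouse windows of this length, 25.2% hold at least 1 of the motifs, 10.7% ACAATG and 16.5% ACAAAG. The GC content was 39.6% in the Sox5 window, 41.6% in both Sox6 windows below and 74.4% in the Sox12 window. Most windows with a match had 39.6% to 45.2%, and most without had 50.8% to 74.4%. The exceptions were Sox6 windows, at 60.8% with a match and 34% without. The 4 windows below are shown because Sox5 and Sox6 were the pair with the highest correlation among these genes, with Sox12 as the window richest in G and C. Of the Sox6 windows, the 2 shown are those with the most matches, 4 and 3, and the others held 1 or 0. All 4 printed windows run 5' to 3' on the minus strand, with matches in capitals, where CTTTGT and CATTGT are the motifs on the other strand.
Sox5, chr6:143947107-143947356: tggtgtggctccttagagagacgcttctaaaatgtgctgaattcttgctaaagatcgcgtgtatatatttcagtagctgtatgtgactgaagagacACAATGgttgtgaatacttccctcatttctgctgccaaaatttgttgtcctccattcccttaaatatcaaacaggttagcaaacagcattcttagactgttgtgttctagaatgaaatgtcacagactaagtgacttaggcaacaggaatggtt
Sox6, chr7:115995087-115995336: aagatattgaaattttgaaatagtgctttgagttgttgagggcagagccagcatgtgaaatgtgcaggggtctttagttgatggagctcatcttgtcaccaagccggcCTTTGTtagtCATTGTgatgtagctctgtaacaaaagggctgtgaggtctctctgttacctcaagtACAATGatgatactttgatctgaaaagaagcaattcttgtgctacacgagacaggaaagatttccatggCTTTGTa
Sox6, chr7:115824711-115824960: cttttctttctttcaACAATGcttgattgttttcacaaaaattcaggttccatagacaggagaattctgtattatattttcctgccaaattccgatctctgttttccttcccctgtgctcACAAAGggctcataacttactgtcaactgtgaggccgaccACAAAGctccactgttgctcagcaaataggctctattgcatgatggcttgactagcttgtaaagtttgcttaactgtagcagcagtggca
Sox12, chr2:152398047-152398296: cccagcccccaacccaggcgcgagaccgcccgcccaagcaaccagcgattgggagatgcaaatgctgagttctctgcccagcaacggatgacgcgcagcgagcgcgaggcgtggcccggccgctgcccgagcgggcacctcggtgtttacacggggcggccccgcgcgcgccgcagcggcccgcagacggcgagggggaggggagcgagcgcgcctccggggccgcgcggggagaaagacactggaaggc
The Sox5 start and both of these Sox6 starts lie inside the annotated span of their gene, downstream of its outermost start. A match is a stretch of letters and not a measured binding site, and the counts do not show which start was used.

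The libraries held 15663957, 12979711 and 14068457 counts in Lama4-/- and 13047466, 6263830 and 13409177 in wild type, so wild type replicate 2 was the shallowest. Levels are in CPM, counts relative to the library total after scaling with edgeR's TMM factors. Lama4 had 0 counts in every Lama4-/- library and 607, 236 and 438 in wild type, as its genotype label says. The defining stromal genes Cxcl12 and Col1a1 were abundant in all 6 libraries, and Col2a1, the collagen of cartilage, alone took 5.20%, 9.61% and 4.72% of the counts in Lama4-/- and 6.88%, 9.90% and 6.99% in wild type. Of the genes used for the gate, Ptprc (CD45) and Pecam1 (CD31) were at most 4.09 CPM, and Itgav (CD51) was at 44.5 to 73.0 CPM in Lama4-/- and 95.9 to 139 CPM in wild type. Cd44, whose protein the gate excluded, was at 53.2 to 82.0 CPM in Lama4-/- and 70.6 to 152 CPM in wild type. Ly6a (SCA1), also excluded by its protein, was at 8.64 to 11.8 CPM in Lama4-/- and 8.9 to 16.3 CPM in wild type. Across all genes the edgeR log2 fold change, Lama4-/- over wild type, went down with transcript length (Spearman's rho of -0.46 across genes, which are not independent replicates), so each SOX gene is also given with that trend removed.

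The log2 fold change was below 0 for all 7 SOX genes, with a median of -0.98, and for Sox9, Sox5, Sox6 and Sox12 every Lama4-/- library lay below every wild type library. Of all 14465 tested genes, 12% were arranged that way and 52.0% were below 0, and the median over all of them was -0.040. In edgeR's quasi-likelihood test none of the 7 passed the Benjamini-Hochberg adjustment, where 1 of 14465 genes (0.00691%), Lama4 itself, did. At an unadjusted p under 0.05 in edgeR 3 of the 7 were lower (Sox9, Sox5 and Sox6) and none higher, against 8.34% of all genes on the lower side. DESeq2 called Sox9 and Sox6 at an adjusted p under 0.05, where it called 3.56% of the 15968 genes it adjusted as lower, and limma voom called none of the 7. In bulk RNA, fewer cells that express a gene and less RNA per cell cannot be told apart.

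**Figure D1:**
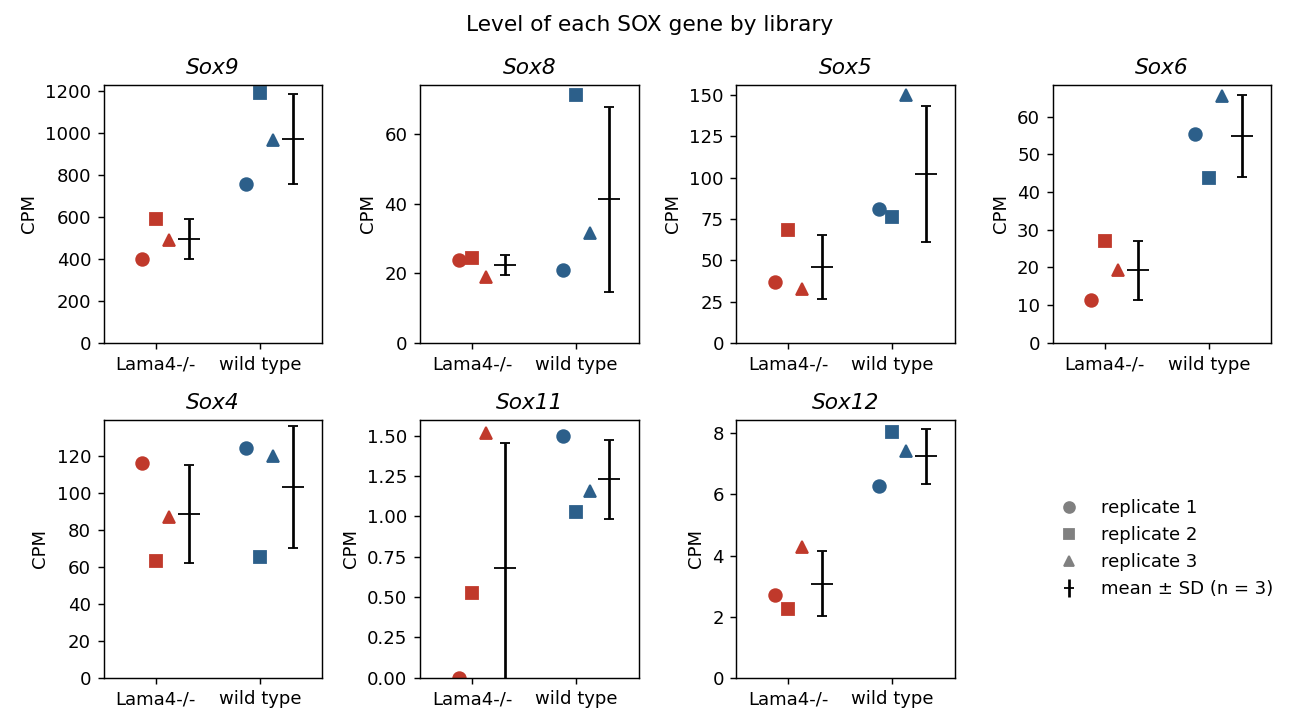
Levels of the 7 SOX genes in CPM, each panel from 0 on its own linear scale, with the 3 Lama4-/- libraries on the left, the 3 wild type libraries on the right, a symbol for each replicate number, and bars for the mean ± SD. The groups do not overlap for Sox9, Sox5, Sox6 and Sox12, while they overlap for Sox8, Sox4 and Sox11.

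Sox9, the chief regulator of the chondrocyte lineage, was counted 6677, 7846 and 6779 times in Lama4-/- and 10155, 6943 and 12562 times in wild type. Scaled, this was 401, 590 and 492 CPM in Lama4-/- against 759, 1190 and 969 CPM in wild type. The highest Lama4-/- library lay below the lowest wild type library, and the highest level of all was in the shallowest library. The means were 494 ± 94.7 CPM in Lama4-/- and 973 ± 215 CPM in wild type (SD, n = 3 each). The log2 fold change was -0.98 (SE 0.24), and edgeR gave it an unadjusted p of 0.00397 and an adjusted p of 0.237. DESeq2 gave an adjusted p of 0.00826. The authors' deposited table lists a shrunken log2 fold change of -0.92 (SE 0.24) with an adjusted p of 0.00665 for Sox9, from their own DESeq2 fit of the same counts. With each library left out in turn the edgeR log2 fold change stayed between -1.13 and -0.81 and the unadjusted p between 0.00321 and 0.0174. Sox9 lay in the 7th decile of transcript length, whose median log2 fold change was -0.15, and 14.9% of that decile was at or below it. Removing the length trend left -0.71 (edgeR unadjusted p = 0.00748). Sox9 was the only 1 of the 7 under 0.05 with the trend removed, where 3.16% of all genes were under it on the lower side.

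Sox8, the E-group relative that acts in bone-forming cells and in the testis, was at 23.8, 24.4 and 19 CPM in Lama4-/- and 20.8, 71.2 and 31.5 CPM in wild type. The groups overlapped, and the wild type spread came from replicate 2. Sox8 averaged 22.4 ± 2.95 CPM in Lama4-/- and 41.2 ± 26.6 CPM in wild type, a log2 fold change of -0.87 (SE 0.46; edgeR unadjusted p = 0.0978, adjusted p = 0.490). That value rested on 1 library, since without wild type replicate 2 it was -0.22 (edgeR unadjusted p = 0.533), while without wild type replicate 1 it was -1.17 (unadjusted p = 0.0271). On 10.6% of its exon bases Sox8 overlaps an antisense gene that the table calls Cerox1, with 0, 70 and 17 counts in Lama4-/- and 87, 38 and 50 in wild type. The kit does not mark strand, so reads of the shared stretch cannot be assigned to either gene. Sox10, the third E-group gene and a factor of glia and pigment cells, had 73, 39 and 87 counts in Lama4-/- and 37, 24 and 33 in wild type. Its level was 4.54 ± 1.7 CPM in Lama4-/- and 3.14 ± 0.846 CPM in wild type, and the groups overlapped (edgeR unadjusted p = 0.488). Of the Schwann cell genes Erbb3 and Cdh19 each had 0 counts in all 3 Lama4-/- libraries, with up to 3.25 CPM in wild type. Ncmap, with the most CPM of the Schwann list, was at 179 ± 46.1 CPM in Lama4-/- and 171 ± 19.9 CPM in wild type, and S100b, which chondrocytes also make, was at 73.1 ± 10.5 CPM in Lama4-/- and 78.2 ± 8.35 CPM in wild type.

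Sox5, whose protein strengthens SOX9 activity as a dimer, was at 37.0, 68.4 and 32.9 CPM in Lama4-/- and 80.8, 76.4 and 150 CPM in wild type. The gap between the groups was narrow, 68.4 CPM in Lama4-/- replicate 2 against 76.4 CPM in wild type replicate 2, and wild type replicate 3 stood well above the rest. Mean levels were 46.1 ± 19.4 CPM in Lama4-/- and 102 ± 41.2 CPM in wild type. The log2 fold change of Sox5 was -1.15 (SE 0.39), with an unadjusted p of 0.0192 and an adjusted p of 0.305 in edgeR and an adjusted p of 0.0815 in DESeq2. Leaving out 1 library took the unadjusted p of edgeR past 0.05 in 3 of 6 cases. It was 0.0820 at a log2 fold change of -0.76 without wild type replicate 3, 0.0600 without Lama4-/- replicate 1 and 0.0551 without Lama4-/- replicate 3. Sox5 is in the decile of the longest transcripts, where the median log2 fold change was -0.92 and 39.8% of genes were at or below Sox5. With the length trend removed Sox5 was at -0.33 (edgeR unadjusted p = 0.347). An antisense gene, Sox5os1, shares 9.25% of its exon bases and was not analysed here.

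Sox6, the partner of SOX5 in the same dimer, was at 11.4, 26.9 and 19.4 CPM in Lama4-/- and 55.4, 43.7 and 65.4 CPM in wild type. Every Lama4-/- library held less than every wild type library, with a wider gap than for Sox5. Sox6 averaged 19.2 ± 7.72 CPM in Lama4-/- and 54.8 ± 10.9 CPM in wild type, on 190, 357 and 267 counts in Lama4-/- and 741, 255 and 848 in wild type. Its log2 fold change of -1.52 (SE 0.36) was the most negative of the 7 genes, with an unadjusted p of 0.00374 and an adjusted p of 0.237 in edgeR and an adjusted p of 0.00837 in DESeq2. The authors' deposited table lists -1.33 (SE 0.35) for Sox6, shrunken, with an adjusted p of 0.00675. The values with each library left out ran from -1.84 to -1.24, with an unadjusted p of at most 0.0166. Sox6 also belongs to the longest decile, 22.3% of which was at or below it. With the trend removed -0.54 was left (edgeR unadjusted p = 0.136). For the members that DESeq2 did not call, the authors' deposited table lists shrunken log2 fold changes of -1.01 for Sox5 (adjusted p = 0.0660), -0.72 for Sox8 (adjusted p = 0.303) and -0.19 for Sox4 (adjusted p = 0.792), and an adjusted p of NA for Sox11 and Sox12. Sox13, the other D-group gene, was close to absent in replicate 3 of both genotypes, with 78, 37 and 1 counts in Lama4-/- and 32, 26 and 0 in wild type.

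Sox4, per length the highest of the C group, was at 116, 63.2 and 86.8 CPM in Lama4-/- and 124, 65.4 and 120 CPM in wild type. The groups overlapped almost entirely, and replicate 2 was the lowest library in both. The mean was 88.7 ± 26.5 CPM in Lama4-/- and 103 ± 32.6 CPM in wild type, and the log2 fold change of -0.22 (SE 0.32; edgeR unadjusted p = 0.523) turned to 0.20 with the length trend removed. A noncoding gene on the opposite strand, Gm26735, overlaps 54.6% of the exon bases of Sox4, and reads of the shared stretch cannot be assigned to either gene. That gene was not analysed here. Sox12 was scarce but separated, at 2.70, 2.26 and 4.28 CPM in Lama4-/- and 6.28, 8.05 and 7.41 CPM in wild type. These rest on 45, 30 and 59 counts in Lama4-/- and 84, 47 and 96 in wild type, and the log2 fold change of -1.23 (SE 0.63) had an unadjusted p of 0.0864 in edgeR. Removing the trend left -0.87 for Sox12 (edgeR unadjusted p = 0.203), and leaving out single libraries gave -1.54 to -1.06. Sox11, with 0, 7 and 21 counts in Lama4-/- and 20, 6 and 15 in wild type, was too low to compare: its log2 fold change of -0.84 had an SE of 1.47.

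**Figure D2:**
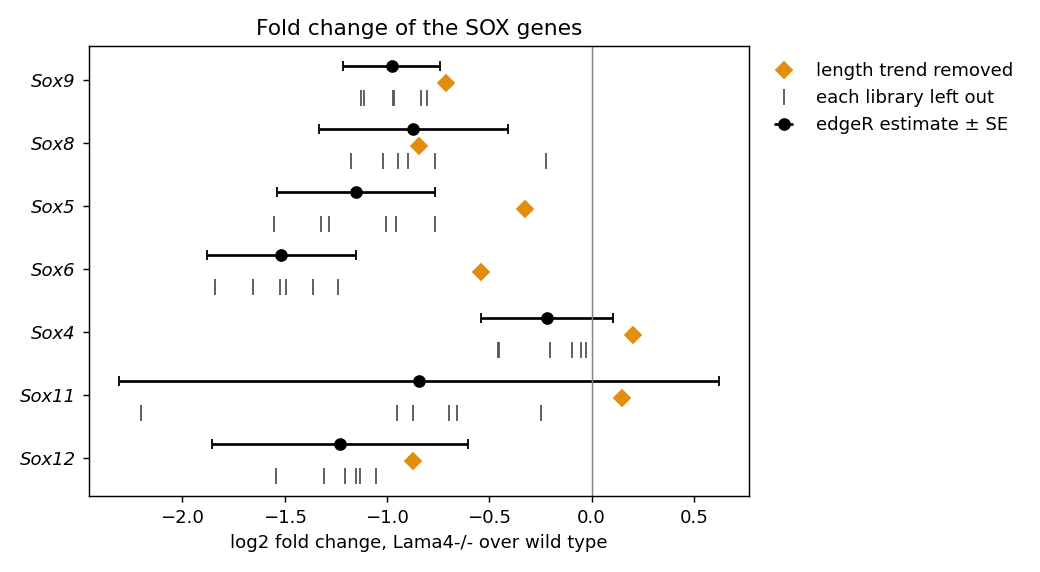
Log2 fold change of each SOX gene, Lama4-/- over wild type, from edgeR with its SE (black points and bars), with the transcript length trend removed (orange diamonds) and with each of the 6 libraries left out in turn (grey ticks). Sox9 keeps -0.71 of -0.98 with the trend removed, Sox5 and Sox6 are left with -0.33 and -0.54, and Sox4 and Sox11 cross 0.

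Divided by the length of the longest transcript, the levels ranked in nearly the same order in both genotypes. Sox9 came first in all 6 libraries, at 120 ± 22.9 CPM per kilobase in Lama4-/- and 235 ± 51.9 in wild type. It made up 71.2%, 80.6% and 78.6% of the summed length-scaled level of the 7 genes in Lama4-/- and 78.0%, 84.0% and 78.1% in wild type. Sox4 followed in 5 of 6 libraries, at 18.5 ± 5.53 CPM per kilobase in Lama4-/- and 21.5 ± 6.80 in wild type, with Sox8 ahead of it in wild type replicate 2. Sox5 and Sox8 exchanged places between libraries and did not differ beyond their spread, at 6.37 ± 2.68 and 7.47 ± 0.984 CPM per kilobase in Lama4-/- and 14.1 ± 5.69 and 13.7 ± 8.86 in wild type. Sox6, Sox12 and Sox11 held the last 3 places in that order in all 6 libraries. Their length-scaled means were 2.22 ± 0.891, 0.692 ± 0.239 and 0.0823 ± 0.0932 CPM per kilobase in Lama4-/- and 6.33 ± 1.26, 1.63 ± 0.201 and 0.148 ± 0.0291 in wild type. Which transcripts the cells used is not known, and with the union of exons as the length Sox5 falls to 3.21 ± 1.35 CPM per kilobase in Lama4-/- and 7.12 ± 2.87 in wild type.

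**Figure D3:**
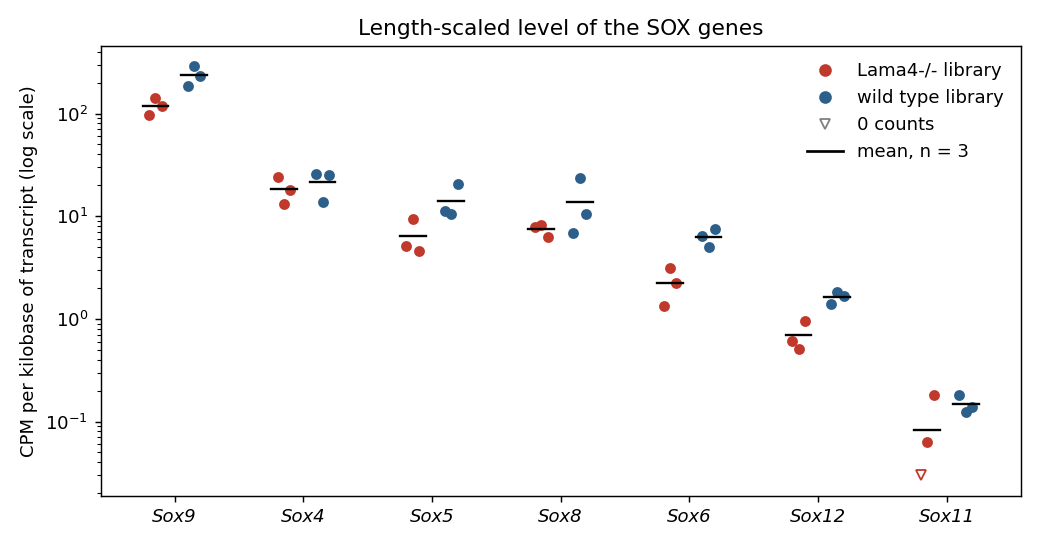
CPM per kilobase of the longest annotated transcript for each SOX gene on a log axis, with Lama4-/- libraries in red to the left of wild type libraries in blue, a line at each mean (n = 3) and a triangle for the library with 0 counts. Sox9 lies far above the others in both genotypes, and Sox6, Sox12 and Sox11 are the last 3 in each.

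The balance among Sox9, Sox5 and Sox6 was compared between the genotypes as log2 ratios of their CPM, not divided by transcript length. Sox9 over Sox6 was 4.75 ± 0.35 in Lama4-/- and 4.14 ± 0.54 in wild type, a difference of 0.61 (two-sided exact permutation test, p = 0.3). For Sox9 over Sox5 the log2 ratio was 3.48 ± 0.40 in Lama4-/- and 3.30 ± 0.64 in wild type (exact p = 0.8), and for Sox5 over Sox6 it was 1.27 ± 0.47 in Lama4-/- and 0.85 ± 0.33 in wild type (exact p = 0.3). Both genotypes overlapped in each of the 3 ratios, and 3 libraries against 3 cannot give less than 0.1 in this test. Across the 6 libraries Pearson's r of log2 CPM was 0.90 between Sox5 and Sox6, 0.88 between Sox9 and Sox6, 0.85 between Sox9 and Sox12 and -0.18 between Sox9 and Sox4. These libraries share a genotype difference and differ in depth, so the correlations are a description. Among 6292 genes with a mean of at least 20 CPM, those most like Sox9 over the 6 libraries included Nfatc2 (a calcium-regulated transcription factor, r = 0.991), Thbs1 (thrombospondin, 0.988), Clint1 (0.987) and Col16a1 (a fibril-associated collagen, 0.987). Those most like Sox6 were Hk2 (hexokinase, r = 0.997), Col27a1 (a cartilage collagen, 0.996), Tcf4 (0.995), Larp4b (0.991) and Phf21a (0.990). Col27a1, itself a known target of SOX9, was at 485 ± 160 CPM in Lama4-/- and 1320 ± 249 CPM in wild type.

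A list of 28 cartilage genes that SOX9, SOX5 and SOX6 are known to activate was read next, and all 28 were tested. In edgeR 0 of the 28 passed the adjustment. At an unadjusted p under 0.05 there were 7 lower genes, which are Col9a1, Col11a1, Col11a2, Col27a1, Acan, Xylt1 and Chst11, and 1 higher gene, Cytl1. Over all tested genes 8.34% were lower and 4.45% higher by that rule. DESeq2 called 5 of the targets lower at an adjusted p under 0.05, beside 3.56% of all genes, and limma voom none. The log2 fold change was negative for 21 and positive for 7, where 52.0% of all tested genes were negative. The median of the targets was -0.32, beside -0.040 over all tested genes. That median moved with single libraries, to -0.75 without Lama4-/- replicate 2, -0.49 without wild type replicate 1, -0.19 without Lama4-/- replicate 3, -0.15 without Lama4-/- replicate 1 and -0.074 without wild type replicate 2.

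The 6 targets with the most CPM overlapped between the genotypes, apart from a minor fibril collagen. Col2a1, the main collagen of cartilage, was at 48800, 93800 and 48200 CPM in Lama4-/- and 67100, 106000 and 72300 CPM in wild type, with a log2 fold change of -0.36 (edgeR adjusted p = 0.729). Comp, a matrix protein that binds collagen, was at 7740 ± 3500 CPM in Lama4-/- and 9360 ± 2840 CPM in wild type. Col9a3 and Col9a2, chains of the collagen on the fibril surface, were at 8300 ± 3620 and 4370 ± 1730 CPM in Lama4-/- and 8710 ± 2020 and 5190 ± 1780 CPM in wild type. Chad, a leucine-rich matrix protein that binds integrins, was at 4580 ± 496 CPM in Lama4-/- and 5410 ± 2920 CPM in wild type. The exception was Col11a2, a chain of the collagen in the fibril core, at 4550 ± 1040 CPM in Lama4-/- and 7640 ± 2090 CPM in wild type, with groups that did not overlap.

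The targets with the smallest p were taken for that p, so a wide separation between the groups comes with the choice. Xylt1, which starts the sugar chains of proteoglycans, was at 50.8, 83.3 and 44.8 CPM in Lama4-/- and 195, 172 and 289 CPM in wild type. Its log2 fold change was -1.87 (SE 0.32; edgeR unadjusted p = 0.000474, adjusted p = 0.237), and -0.87 was left with the length trend removed. Acan, the large proteoglycan aggrecan, was at 812, 1580 and 971 CPM in Lama4-/- and 3170, 2440 and 3720 CPM in wild type, a log2 fold change of -1.47 that came to -0.63 with the trend removed. Col11a1 was at 2600 ± 735 CPM in Lama4-/- and 6730 ± 1230 CPM in wild type, at -1.37, and -0.50 with the trend removed. In all of these, Col27a1 included, every Lama4-/- library lay below every wild type library. Over the whole list this held for 7 of the 28 targets, with 2 the other way, beside 12% of all tested genes below.

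Within the target list the fold change went with transcript length, as it did over all genes. Spearman's rho of log2 fold change and length was -0.85 across the 28 targets and -0.29 with the trend removed. The median log2 fold change was 0.01 for the 11 targets under 3000 bases, -0.47 for the 12 of 3000 to under 6000 bases and -1.45 for the 5 of 6000 bases or more. Over all tested genes the medians in these bins were 0.25, -0.24 and -0.86, so the median of the targets was the lower in each. With the trend removed, 22 of the 28 targets were negative with a median of -0.31, beside 48.6% and a median of 0.020 over all tested genes. In the same fit 3 targets were lower at an unadjusted p under 0.05 in edgeR, beside 3.16% of all genes. The short targets did not all behave alike. Cytl1, a small protein secreted by chondrocytes, was at 1170, 1470 and 1030 CPM in Lama4-/- and 926, 646 and 772 CPM in wild type, with every Lama4-/- library above every wild type library (edgeR adjusted p = 0.306). Snorc, a chondrocyte membrane proteoglycan, was at 456 ± 74.4 CPM in Lama4-/- and 453 ± 58.8 CPM in wild type.

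**Figure D4:**
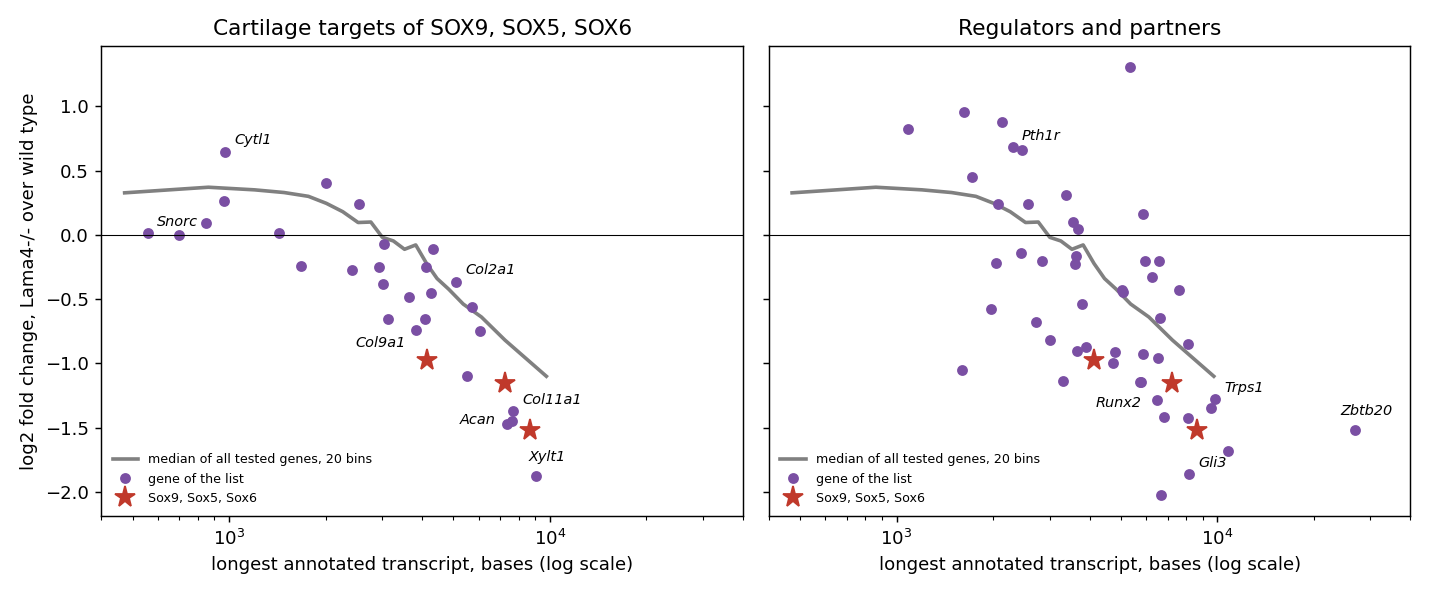
Log2 fold change (Lama4-/- over wild type) against the longest annotated transcript on a log axis, for the 28 cartilage targets (left) and 49 regulators (right) as purple points, with Sox9, Sox5 and Sox6 as stars and the median of all tested genes as a grey line. Both lists slope downward with length, and Sox9, Sox5 and Sox6 lie below the line for all genes.

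Sox9 was also read against the summed level of its 28 targets in the same library. The targets together were at 88900, 168000 and 94900 CPM in Lama4-/- and 125000, 196000 and 145000 CPM in wild type. Within each genotype the library with the highest Sox9 level had the highest target sum, and the library with the lowest had the lowest. Per 1000 CPM of targets there were 4.51, 3.51 and 5.19 CPM of Sox9 in Lama4-/- and 6.06, 6.08 and 6.69 CPM in wild type. The groups did not overlap, with a log2 difference of -0.53 (two-sided exact permutation test, p = 0.1, the smallest that 3 against 3 can give). Without Col2a1, which makes up much of the sum, there were 9.49 ± 1.38 CPM of Sox9 per 1000 CPM of targets in Lama4-/- and 13.2 ± 0.167 CPM in wild type (exact p = 0.1). Adjusted over the 5 ratios tested in this way, the p-values were 0.25 for both target ratios, 0.375 for Sox9 over Sox6 and for Sox5 over Sox6, and 0.8 for Sox9 over Sox5.

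**Figure D5:**
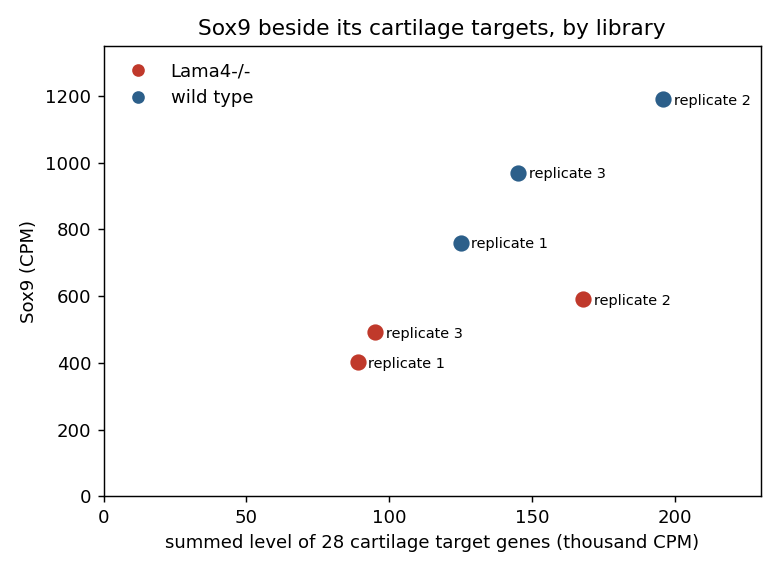
Sox9 level in CPM against the summed level of the 28 cartilage targets in units of 1000 CPM, with 1 point for each library, Lama4-/- in red and wild type in blue. All 3 wild type libraries lie above all 3 Lama4-/- libraries in Sox9, while Lama4-/- replicate 2, at 168000 CPM of targets, exceeds wild type replicates 1 and 3 in the sum.

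A second list holds 50 genes that regulate Sox9, Sox5 and Sox6 or work with them, among them BMP, TGF-beta, FGF, hedgehog and WNT signalling genes, and 49 were tested. None passed the adjustment in edgeR. At an unadjusted p under 0.05 in edgeR 18 were lower and 1 was higher, and 14 had every Lama4-/- library below every wild type library. Over all tested genes these shares were 8.34% lower, 4.45% higher and 12% below without overlap. DESeq2 called 12 lower, beside 3.56% of all genes, and limma voom called none at an adjusted p under 0.05. The median was -0.54, with 36 negative and 13 positive, where 52.0% of all tested genes were negative. With the length trend removed the median of the list came to -0.19, beside 0.020 over all tested genes. In that fit 3 regulators were lower and 1 was higher at an unadjusted p under 0.05, beside 3.16% and 4.95% of all genes.

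Pth1r, the receptor through which PTHrP holds back chondrocyte maturation, had the most CPM of the list and was its 1 higher gene, at 1430, 2110 and 1410 CPM in Lama4-/- and 829, 1370 and 889 CPM in wild type. The log2 fold change of Pth1r was 0.68 (SE 0.27; edgeR adjusted p = 0.360), and 0.53 with the trend removed. Among signalling components, Ctnnb1 (beta-catenin, which opposes SOX9) was at 339 ± 27.5 CPM in Lama4-/- and 381 ± 95.2 CPM in wild type, and Fgfr1 (an FGF receptor) at 219 ± 30.3 CPM in Lama4-/- and 295 ± 12.8 CPM in wild type. With the trend removed the log2 fold change of Ctnnb1 came from -0.17 to -0.022 and that of Fgfr1 turned from -0.43 to 0.055. Gli3, a transcription factor of hedgehog signalling, was at 14.1 ± 8.28 CPM in Lama4-/- and 51.3 ± 4.59 CPM in wild type. Its log2 fold change of -1.86 became -0.97 without the trend.

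Transcription factors of bone and cartilage made up most of the other named regulators. Runx2, which drives osteoblasts and late chondrocytes, was at 68.8 ± 8.55 CPM in Lama4-/- and 168 ± 37.5 CPM in wild type. Runx1, which acts in early chondrocytes and in blood, was at 100 ± 20.3 CPM in Lama4-/- and 191 ± 15 CPM in wild type. Neither pair of groups overlapped, and the log2 fold changes of -1.29 for Runx2 and -0.93 for Runx1 came to -0.55 and -0.31 with the trend removed. Trps1, a GATA-type repressor of chondrocyte maturation, was at 80.5, 67.4 and 74.8 CPM in Lama4-/- and 180, 152 and 207 CPM in wild type, but its log2 fold change of -1.28 was -0.20 with the trend removed. Zbtb20, a zinc finger repressor of Sox9 in growth plate chondrocytes, was at 171 ± 13.2 CPM in Lama4-/- and 488 ± 203 CPM in wild type, and its log2 fold change turned from -1.52 to 0.15. Hif1a, the oxygen-sensing factor needed by cartilage, was at 193 ± 75.8 CPM in Lama4-/- and 384 ± 81.4 CPM in wild type. Nfatc1, a calcium-regulated transcription factor, was at 283 ± 75.9 CPM in Lama4-/- and 532 ± 226 CPM in wild type, with groups that overlapped. The log2 fold changes of -0.995 for Hif1a and -0.91 for Nfatc1 came to -0.60 and -0.48 with the trend removed.

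Neutrophil, monocyte and red cell genes were read beside these results, and the summed level of each list overlapped between the genotypes. In the list of 10 neutrophil and monocyte genes, 9 were higher in Lama4-/- by log2 fold change, 4 of them at an unadjusted p under 0.05 in edgeR, a rule that 4.45% of all tested genes met on the higher side. With the length trend removed 4 were higher at an unadjusted p under 0.05 in edgeR, beside 4.95% of all tested genes. The list summed to 756, 687 and 118 CPM in Lama4-/- and 109, 38.0 and 120 CPM in wild type, led by S100a9 and S100a8. Ptprc had 0, 29 and 0 counts in Lama4-/- and 0, 8 and 53 in wild type. All 9 tested red cell genes were higher by log2 fold change, 4 at an unadjusted p under 0.05, beside the same 4.45%. With the length trend removed 1 of them was higher at an unadjusted p under 0.05 in edgeR, beside 4.95% of all tested genes. The red cell list summed to 3460, 1390 and 3880 CPM in Lama4-/- and 260, 643 and 1700 CPM in wild type. Hbb-bs and Hba-a1 led it, and Gata1 had 0, 37 and 0 counts in Lama4-/- and 0, 0 and 14 in wild type. The part of these cells in the SOX results was not tested.

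Markers of neighbouring skeletal stages were read in the same way. The hypertrophic and osteogenic list, which contains Col10a1, Ihh and Spp1, summed to 14800, 14100 and 20800 CPM in Lama4-/- and 10400, 13500 and 11200 CPM in wild type, with 6 of 9 genes positive and Spp1 and Ibsp at the highest CPM. The stromal progenitor list had 9 of 10 genes below 0 in log2 fold change, beside 52.0% of all tested genes. It summed to 49600, 27800 and 75200 CPM in Lama4-/- and 43000, 58000 and 45900 CPM in wild type, a sum that Col1a1 dominates. In that list 6 of 10 were lower at an unadjusted p under 0.05 in edgeR, beside 8.34% of all tested genes. For 5 of them every Lama4-/- library lay below every wild type library, beside 12% of all tested genes. With the length trend removed 3 were lower at an unadjusted p under 0.05, beside 3.16% of all tested genes. Lepr, the leptin receptor of marrow stroma, was at 148, 167 and 68.8 CPM in Lama4-/- and 437, 443 and 203 CPM in wild type, with a log2 fold change of -1.50 that came to -0.95 with the trend removed. The part of these stromal genes in the SOX results was not tested. The endothelial list summed to 2.76 to 4.96 CPM in Lama4-/- and 7.25 to 11.6 CPM in wild type, led by Erg and Pecam1. Cdh5, Tek and Tie1 had 0 counts in Lama4-/-. In wild type they had 12, 2 and 29 (Cdh5), 22, 0 and 0 (Tek) and 12, 0 and 23 (Tie1). Sox18 went the other way, with 60 counts in Lama4-/- replicate 1 and 1 in wild type replicate 2. Sox7 had 23 counts in Lama4-/- replicate 2 and 19 in wild type replicate 2. In the B lymphoid list Ebf1, which stroma also expresses, carried most of the signal ahead of Ighm, and Pax5 had 0 counts in 5 of 6 libraries.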

How the data were processed

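RNA of sorted marrow progenitors was made into full-length cDNA by SMART-Seq v4, a kit that leaves strand unmarked, and, per the labels' protocols, read from 1 end over 75 bp. The submitters' processing notes name STAR 2.6.1d, featureCounts, DESeq2 and GRCm38, with no parameters. The authors deposited 1 table of 25491 genes. Its 2 block headings are swapped. Whole numbers fill 100% of the cells under the heading normalized, and these served as the deposited raw counts. Under the heading raw stands a deposited signal, equal to the counts times a constant per library (0.708 to 1.98), which was not tested. Per the file headers, the authors' log2 fold change, its SE and its p-value come from DESeq2 with a beta prior.

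Here, genes passing edgeR's filterByExpr (14465) were compared, 3 Lama4-/- libraries against 3 wild type, with the robust quasi-likelihood test of edgeR 4.0.16 in R 4.3.3 after TMM scaling, with no covariate and a Benjamini-Hochberg threshold of 0.05 over all of them. Values are means ± SD over 3 libraries. The length trend was removed with a lowess offset (span 0.3) on the longest transcript, taken with positions from GENCODE for the 25458 identifiers (99.9%) found there. DESeq2 1.42.0 and limma 3.58.1 were alternatives. Libraries of the same genotype all differed by more than sampling noise (lowest chi-square per gene, 47.2). The edgeR test, without the length offset, was also run on simulated counts with known changes. The other steps were not tested in this way.

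The SOX genes, lists and tests were chosen with earlier results of these data known. Named genes are the SOX genes in the table, the 6 most abundant and the 4 smallest-p genes of the target and regulator lists, the 5 genes most like Sox9 and Sox6, and the 2 most abundant of each marker list; the other named targets (Snorc, Cytl1, Chst11 and Col9a1) and the other named marker and gate genes were added after their values were seen. Some genes taken by these rules are not reported here. Sox2, Sox3, Sox14, Sox17 and Sox21 were not analysed here. Promoter windows are RefSeq's.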

Additional observations from a re-analysis of the deposited data

How the results depend on the processing

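Of 165 alternative values for the SOX genes, their 2 lists and the count of called genes, 138 kept their direction and their side of the threshold or moved little. The count of called genes was 1 in edgeR and 12 with no filter. It was 0 with upper-quartile scaling, without robust moderation, with the length trend removed and with limma voom, where 1955, 1874, 1173 and 2352 genes had an unadjusted p under 0.05. DESeq2 called 741, and leaving out 1 library gave 0 to 1. DESeq2 put Sox9 (-0.97) and Sox6 (-1.52) past the threshold. Removing the length trend left 1 SOX gene at an unadjusted p under 0.05 and reversed Sox4 to 0.20 and Sox11 to 0.15. Sox9 stayed under 0.05 in 15 of 15 alternatives, Sox6 in 14 and Sox5 in 11. Sox11 could not be fitted under the 5 CPM filter. With each library left out the target median ranged from -0.75 to -0.074 and the regulator median from -0.73 to -0.46. The regulator median was -0.44 with upper-quartile scaling, -0.58 with the 5 CPM filter, -0.50 with limma voom and -0.19 with the length trend removed. Upper-quartile scaling made 49.5% of the genes at an unadjusted p under 0.05 lower in Lama4-/-, against 65.2% with TMM, and all 7 SOX genes stayed negative.

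The labels do not say whether the replicate numbers pair the libraries. Same-numbered deviations had r of 0.0594, 0.16 and 0.0534, and differently numbered ones -0.0946 to 0.0205. Each library correlated best with its own number, but values this small cannot decide whether the libraries were paired. With the replicate block edgeR called 0 genes (1930 at an unadjusted p under 0.05), and the regulator median was -0.44. Depth limits Sox11 and Sox12 most.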

Other observations

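Of the 7 other SOX genes in the table, 5 were under the filter. Sox18, an endothelial factor, had 60 counts in Lama4-/- replicate 1, none in the other Lama4-/- libraries and 1 in wild type replicate 2. Sox30, a factor of male germ cells, had 29 counts in Lama4-/- replicate 1 and 0 in the other 5 libraries, and Sox15 had 23 counts in Lama4-/- replicate 3 and 0 elsewhere. Sox7 had 23 counts in Lama4-/- replicate 2 and 19 in wild type replicate 2, and 0 in the other 4 libraries. Sox1 had 3 counts, all in Lama4-/- replicate 2. The intronic transcript Sox5it had 33 counts, all in Lama4-/- replicate 1, and the antisense transcript Sox6os had 11, 3 and 0 counts in Lama4-/- and 4, 0 and 4 in wild type. Sox5it and Sox6os were under the filter too, and none of these genes was tested.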
